A study of Caenorhabditis elegans with 4 samples.

Results

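The Wnt ligand and Frizzled receptor genes of Caenorhabditis elegans were examined for occupancy by EGL-27, a chromatin protein of the MTA family whose zinc finger is of the GATA type. The set was named by function, not by any measured value, though earlier results of these data were known. It held 9 of the 19973 nuclear protein-coding genes. These were the Wnt genes lin-44, egl-20, cwn-1, cwn-2 and mom-2, and the Frizzled genes mig-1, lin-17, mom-5 and cfz-2. The data were lists of ChIP-seq peaks, the places where DNA bound to a protein is enriched after that protein is pulled down from sheared chromatin, in whole animals at the third larval stage (L3). All 4 samples belonged to 1 group, numbered as biological replicates 1 to 4. They came from strain OP177, which carries unc-119(ed3) and the transgene wgIs177, from which EGL-27 is expressed with a C-terminal GFP-FLAG tag; animals of both sexes were pooled. No second condition, second stage or ChIP of another protein was compared here. In whole animals, strong occupancy in a few cells and weak occupancy in many cells cannot be told apart.

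Wnt proteins are secreted lipid-modified ligands, and Frizzled proteins are the seven-pass membrane receptors that bind them. In the worm this pathway sets the polarity of dividing cells and guides migrating neuroblasts and axons along the body. LIN-44 acts through LIN-17 to polarize the T cell in the tail, and EGL-27 is known from genetics as a further regulator of that division. EGL-20, made in the posterior, steers the Q neuroblasts, and MIG-1, LIN-17 and MOM-5 act as receptors there. MOM-2 and MOM-5 polarize the embryonic EMS blastomere, and CWN-1, CWN-2 and CFZ-2 act in neuronal migration and axon guidance.

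For each gene the locus was its annotated body and the 5 kb upstream of its 5′ end on WBcel235 (ce11). A gene was scored by the peak summits that fell there, and a peak by its rank in a list ordered by the authors' signal value, with rank 1 the strongest. The final list kept peaks by their irreproducible discovery rate, or IDR, which asks whether peaks rank alike from replicate to replicate, and held 814 peaks. The pooled list, called on the 4 replicates together, held 28056, and the lists of replicates 1 to 4 held 30000, 6602, 19304 and 12990. Pooled and replicate lists hold background as well as peaks, and the read depth behind them is unknown.

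None of the 9 loci held an IDR summit. Over all nuclear protein-coding genes 6.76% of loci held one, or 7.83% when genes are weighted to the locus lengths of the 9, so that a count of 0 among 9 genes lies near this background. A pooled summit lay in 8 of the 9 loci, against 81.0% of all protein-coding loci and 87.3% with the same weighting. The gene without a pooled summit was lin-44. In total 30 pooled summits fell in the 86.1 kb of the 9 loci. This was 3.49 summits per 10 kb, against 2.82 per 10 kb summed over all protein-coding loci, and the median was 3.00 summits per member, against 2.00 per gene. These medians are not weighted for locus length, 7.20 to 15.7 kb in the members against a median of 7.03 kb over all protein-coding genes. The share of Wnt and Frizzled loci with a peak was therefore close to that of the genome at both levels of stringency.

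The authors' signal value of the 30 pooled peaks ran from 4.75 to 17.9, with a median of 6.72, against a median of 6.94 in the whole pooled list. The weakest IDR peak had a value of 24.2, above every peak in the 9 loci. This adds nothing to the lack of IDR summits there, since the 814 IDR peaks end at rank 814 of the pooled list. By rank, 5, 5, 7, 5 and 8 of the 30 fell in 5 successive bands of equal size along the pooled list, from the strongest to the weakest, so the summits were spread along the whole ranking. Their deposited −log10 q-values ran from 0.0209 to 2.22, with a median of 0.243. The highest were 2.22 at cwn-2, 1.62 at lin-17 and 1.57 at mom-5, and the rest were at most 1.15. Most of the 30 would thus not pass a usual q-value cutoff. The value 2.22 was also that of summits at ranks 84 and 733 in mom-1, another Wnt pathway gene, so it does not grade the strongest peaks.

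**Figure D1:**
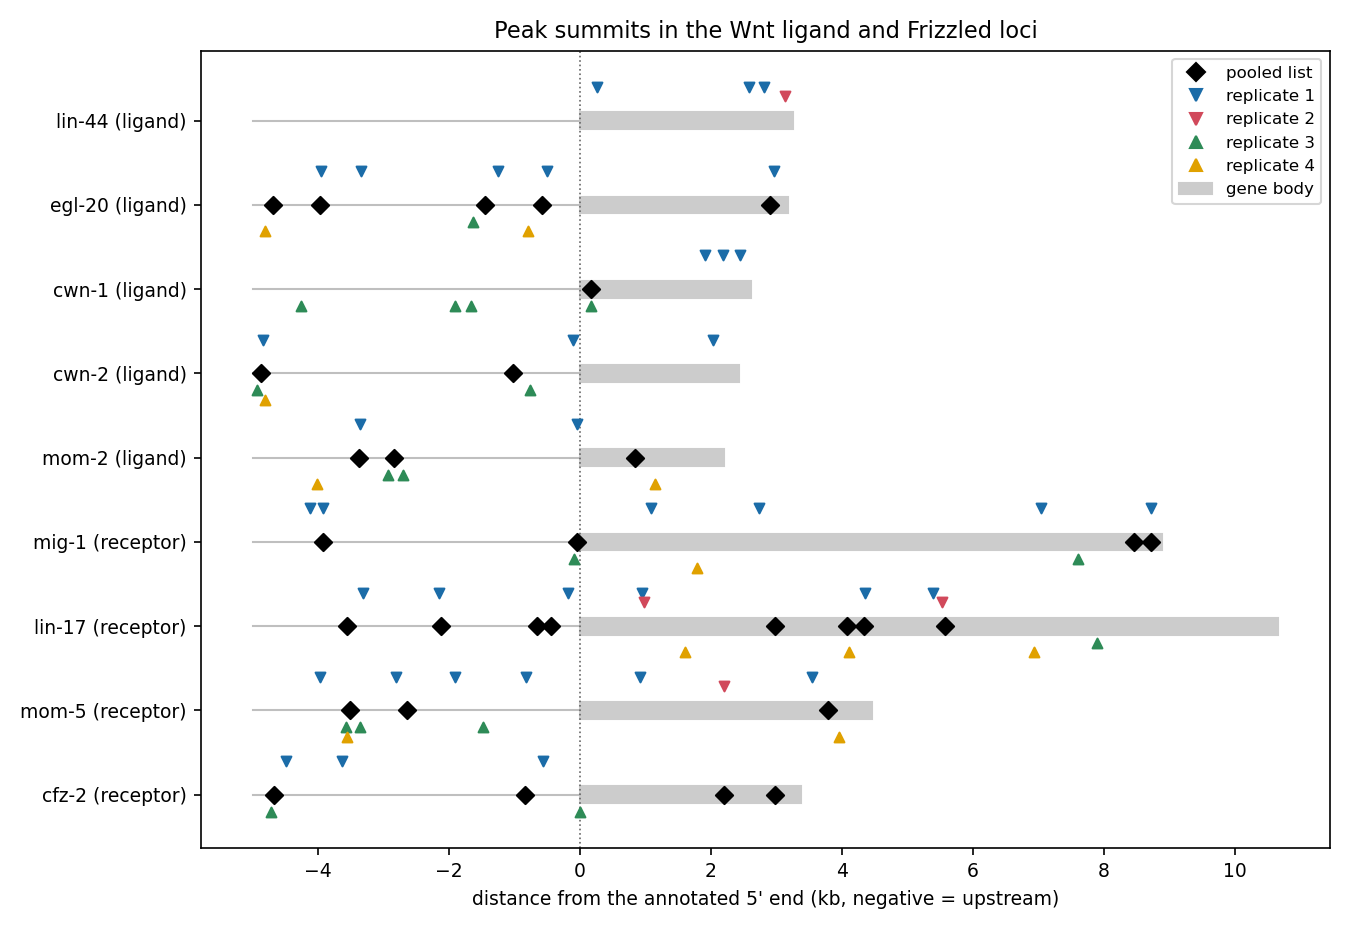
Peak summits at the 9 genes. The x axis gives the distance from the annotated 5′ end in kb, with upstream to the left, grey bars mark gene bodies, black diamonds are the 30 pooled summits and coloured triangles are the summits of the 4 replicates; triangles of different replicates seldom line up with each other.

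The sequences around the strongest pooled summit are printed for 5 of the 8 members that had one. These are not the 5 strongest. The unprinted summits of lin-17 and mom-5, at ranks 3991 and 4149, were stronger than all printed ones but that of cwn-2. Each is the 101 bases centred on the summit, from the plus strand of WBcel235 (RefSeq), with capitals on any match to a GATA site (AGATAA or AGATAG, and the same letters with T first, TGATAA or TGATAG, on either strand).
cwn-2, chrIV:10062896-10062996: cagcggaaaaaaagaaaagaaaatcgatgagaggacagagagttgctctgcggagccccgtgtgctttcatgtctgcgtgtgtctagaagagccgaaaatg
mom-2, chrV:8352566-8352666: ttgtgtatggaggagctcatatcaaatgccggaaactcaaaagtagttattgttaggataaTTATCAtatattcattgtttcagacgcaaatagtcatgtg
egl-20, chrIV:9816065-9816165: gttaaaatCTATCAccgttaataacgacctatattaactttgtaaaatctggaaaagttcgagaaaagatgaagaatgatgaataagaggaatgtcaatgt
cwn-1, chrII:133374-133474: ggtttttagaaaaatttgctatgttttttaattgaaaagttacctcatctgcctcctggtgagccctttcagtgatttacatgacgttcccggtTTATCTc
cfz-2, chrV:3445661-3445761: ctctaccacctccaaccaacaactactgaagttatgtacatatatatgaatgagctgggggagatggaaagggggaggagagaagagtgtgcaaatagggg
The windows at mom-2, egl-20 and cwn-1 held 1 GATA match each, and those at cwn-2 and cfz-2 held none of the 5 motifs searched. The windows of lin-17, mom-5 and mig-1 are not printed here and held no GATA match, so the printed windows overstate how common the match was. A GATA match lay at the strongest summit of 3 of the 8 genes with a pooled summit. Over all nuclear pooled summits the share was 21.5%.

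Over all 30 member summits, a GATA match lay within 50 bp of 8 (26.7%), against 21.5% of all nuclear pooled summits. The TCF-type motif CTTTGAT, the kind of site bound by the Wnt effector POP-1, was within 50 bp of 1 (3.33%, at mig-1), against 1.85%. The variant CTTTGAA was near 0 of the 30, against 3.06%, the E-box CACGTG near 0, against 2.51%, and the repeat GAGAGAG near 0, against 3.90%. Median GC content within 50 bp was 40.6% at the member summits, which ranged from 18.8% to 55.4%, and 38.6% at all nuclear pooled summits. With 30 summits these motif shares differ by a few peaks at most.

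Among the ligands, cwn-2 (WBGene00000858; chromosome IV, 10067816 to 10070251, plus strand) had the strongest pooled peak, with a signal value of 17.9 and rank 1659. Its summit lay 4870 bp upstream of cwn-2 and in no gene. The 5′ end of ipla-7, on the opposite strand, was 97 bp away, so the peak lay in the promoter region of ipla-7 and cannot be given to cwn-2. It matched a summit within 200 bp in replicates 1, 3 and 4, at ranks 8187, 17428 and 1693, and none in replicate 2. It was the 1 member summit found in more than 2 replicates. The other cwn-2 summit, 1023 bp upstream, had rank 25743 and matched no replicate. The locus held 3, 0, 2 and 1 summits in replicates 1 to 4.

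At mom-2 (WBGene00003395; chromosome V, 8355988 to 8358185, plus strand) the best of 3 pooled summits had rank 5602 and lay 3372 bp upstream, inside an intron of srsx-22, a gene named as a chemoreceptor. It matched replicate 1 alone, where it had rank 1527, the best rank of that replicate in any of the 9 loci. A second summit, 2843 bp upstream with rank 25704, matched replicate 3 alone at rank 1542, also the best of its replicate. The third lay in a coding exon 832 bp from the 5′ end, at rank 24296, and matched none. Replicates 1 and 3 thus each had a fairly strong peak upstream of mom-2, at different places. The nearest IDR summit to any member was here, 6.84 kb upstream of mom-2 at rank 301, outside the 5 kb window.

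The egl-20 locus (WBGene00001188; chromosome IV, 9812357 to 9815532, minus strand) had 5 pooled summits, the most of any ligand. The strongest, 583 bp upstream at rank 6060, had a −log10 q-value of 0.988 and matched replicate 1 at rank 6193. It also lay within 200 bp of the non-coding RNA gene W08D2.13. A summit 1449 bp upstream, at rank 14082, matched replicates 1 and 3 at ranks 7894 and 4381. The 2 replicate summits lay on opposite sides of it, 195 and 193 bp away, so they did not match each other. A further 2 lay 3966 and 4691 bp upstream inside coding exons of catp-6, nearer to the 5′ end of the collagen gene col-123. The last lay in the 3′ UTR, nearest to dct-15. The locus held 5, 0, 1 and 2 summits in replicates 1 to 4.

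The remaining ligands had little. At cwn-1 (WBGene00000857; chromosome II, 130983 to 133598, minus strand) the 1 pooled summit lay in a coding exon 174 bp from the 5′ end, at rank 18484, and matched replicate 3 at rank 6363. Replicates 1 to 4 had 3, 0, 4 and 0 summits there, those of replicate 1 in the distal gene body. At lin-44 (WBGene00003029; chromosome I, 4126056 to 4129310, plus strand) replicate 1 had 3 summits, the best at rank 5104, and replicate 2 had 1, at rank 5844. Replicates 3 and 4 had 0 at lin-44, and none of the 4 summits was within 200 bp of one from another replicate or of a pooled summit. The ligand of the T cell division that EGL-27 regulates thus gave no peak found more than 1 time.

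Among the receptors, lin-17 (WBGene00003006; chromosome I, 2706883 to 2717549, plus strand) had the most pooled summits of the 9 genes, 8, in the longest locus, 15.7 kb. The strongest lay 661 bp upstream, with a signal value of 12.0 and rank 3991, and matched no replicate. The nearest replicate summits were 479, 1636, 6775 and 2263 bp from it in replicates 1 to 4. Among pooled summits of the strongest of the 5 rank bands, to which it belongs, 99.2% matched at least 1 replicate. A second lin-17 summit, in a coding exon 5580 bp from the 5′ end at rank 5332, matched replicate 2 at rank 400 and replicate 1 at rank 25949. That summit of replicate 2, in an intron, stood at 6.06% of its list from the top, against 5.09% for the best mom-2 summit of replicate 1. The other 6 pooled summits had ranks from 12125 to 27786. The locus held 6, 2, 1 and 3 summits in replicates 1 to 4.

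At mom-5 (WBGene00003397; chromosome I, 9965574 to 9970037, plus strand) the best of 3 pooled summits, rank 4149 with a signal value of 11.8, lay 2641 bp upstream and within 200 bp of the non-coding RNA gene T24D1.6. It matched replicate 1 at rank 6044. A second, 3518 bp upstream at rank 14725, matched replicates 3 and 4 at ranks 5843 and 10840. The 5′ end of algn-10, on the other strand, was 79 bp from it and 956 bp from the first. The third lay in the 3′ UTR at rank 10989 and matched replicate 4. Replicates 1 to 4 had 6, 1, 3 and 2 summits at mom-5.

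At mig-1 (WBGene00003238; chromosome I, 948569 to 957456, minus strand) the best of 4 pooled summits, rank 7765, lay in a coding exon 8725 bp from the 5′ end and matched replicate 1 at rank 13262. The pooled summit nearest to any member's 5′ end was also here, 52 bp upstream at rank 9363, and it matched replicate 3 at rank 13136. At cfz-2 (WBGene00000478; chromosome V, 3441504 to 3444877, minus strand) the 4 pooled summits had ranks from 14593 to 26494. Of these, 3 matched no replicate, and the one 4674 bp upstream matched replicates 1 and 3 at ranks 7855 and 10427. Those replicate summits lay on opposite sides of it, 178 and 41 bp away, and did not match each other. Replicates 1 to 4 had 6, 0, 2 and 1 summits at mig-1 and 3, 0, 2 and 0 at cfz-2. The best replicate summit at mig-1, rank 4482 of replicate 1, stood at 14.9% of its list.

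**Figure D2:**
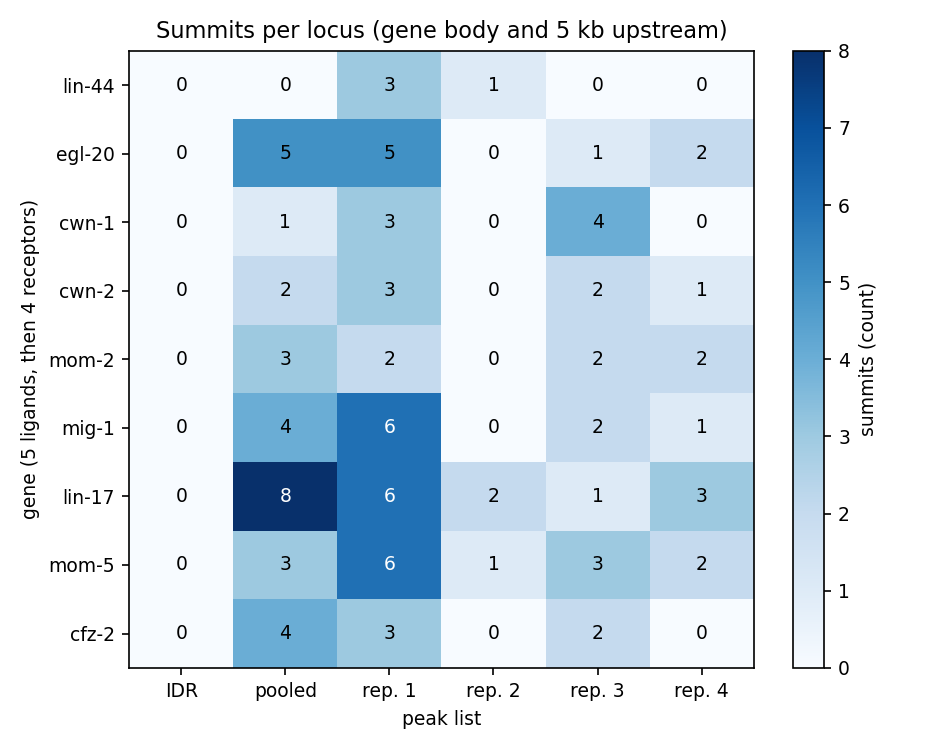
Summits in each locus (rows, ligands above receptors) by peak list (columns); the number in each cell and its shade give the count of summits. The IDR column is 0 throughout, and replicate 2 has a summit at lin-44, lin-17 and mom-5 only.

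The loci with a summit numbered 9, 3, 8 and 6 of 9 in replicates 1 to 4, a mean of 6.50 ± 2.65 (SD, n = 4). Over all protein-coding genes the corresponding shares were 84.8%, 38.5%, 72.0% and 58.2%. The number of member loci followed the length of each list, and stood at or near the background in each replicate. Both lin-17 and mom-5 had a summit in all 4 replicates, 2 of 9 genes against 23.0% of all protein-coding genes. That share is not weighted for locus length, and both loci are in the longest of the 5 bands of locus length. The summits were mostly at different places: none in either locus lay within 200 bp of summits from more than 1 other replicate. The 9 loci held 37, 4, 17 and 11 summits, or 2.00 ± 1.65 per 10 kb (SD, n = 4), against 1.75 ± 1.01 over all loci. Both SDs include the unequal lengths of the 4 lists, so they do not measure this difference, which was not tested. Replicate 1 alone was above the genome, with 4.30 against 3.04 summits per 10 kb, replicate 2 was below it, with 0.465 against 0.670, and replicates 3 and 4 were close to it, with 1.98 against 1.96 and 1.28 against 1.32.

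Ligand and receptor loci held 4.14 and 4.43 summits per 10 kb in replicate 1, and 0.259 and 0.633 in replicate 2. In replicate 3 the values were 2.33 and 1.69, and in replicate 4 1.29 and 1.27, so the direction varied. The means were 2.00 ± 1.65 and 2.00 ± 1.67 (SD, n = 4), where the SD includes the unequal list lengths. In the pooled list ligand and receptor loci held 11 summits in 38.7 kb and 19 in 47.4 kb, or 2.84 and 4.01 per 10 kb. The difference was not tested. The order of the genes by their best peak also changed between lists. For the ligands the pooled order was cwn-2, mom-2, egl-20, cwn-1. In replicate 1 mom-2 came first (rank 1527) and lin-44 second (rank 5104), in replicate 3 mom-2 (rank 1542) and egl-20 (rank 4381), and in replicate 4 cwn-2 (rank 1693) and egl-20 (rank 3449). For the receptors lin-17 led the pooled list and replicate 2, mig-1 led replicates 1 and 4 at ranks 4482 and 2826, and mom-5 led replicate 3 at rank 5843. No gene of either kind was first in every list.

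Replicates seldom placed a summit at the same position in these loci. Of the 30 pooled summits, 10 matched no replicate within 200 bp, 15 matched 1, 4 matched 2 and 1 matched 3. The share found in at least 1 replicate was 66.7%, against 81.8% of nuclear pooled summits, in at least 2 replicates 16.7%, against 31.6%, and in at least 3 replicates 3.33%, against 8.81%. Weaker pooled peaks were found in fewer replicates, with 65.0% of all those in the weakest of the 5 rank bands in at least 1 replicate, against 99.2% in the strongest. With all pooled peaks weighted to the rank bands of the 30, the shares were 80.1%, 28.7% and 7.48%, which the member summits still did not reach. These summits number 30 in 8 loci, and the gap was not tested. Of the 69 summits that the replicates placed in the loci, 10 (14.5%) lay within 200 bp of a summit of another replicate, against 33.5% of all nuclear replicate summits, and 29 (42.0%) within 200 bp of a pooled summit, against 50.4%. By replicate, 3 of 37, 2 of 4, 3 of 17 and 2 of 11 were shared with another replicate in the member loci, against 27.4%, 42.4%, 34.7% and 41.2% of all summits of replicates 1 to 4. These shares of replicate summits are not weighted by rank, and the differences were not tested.

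**Figure D3:**
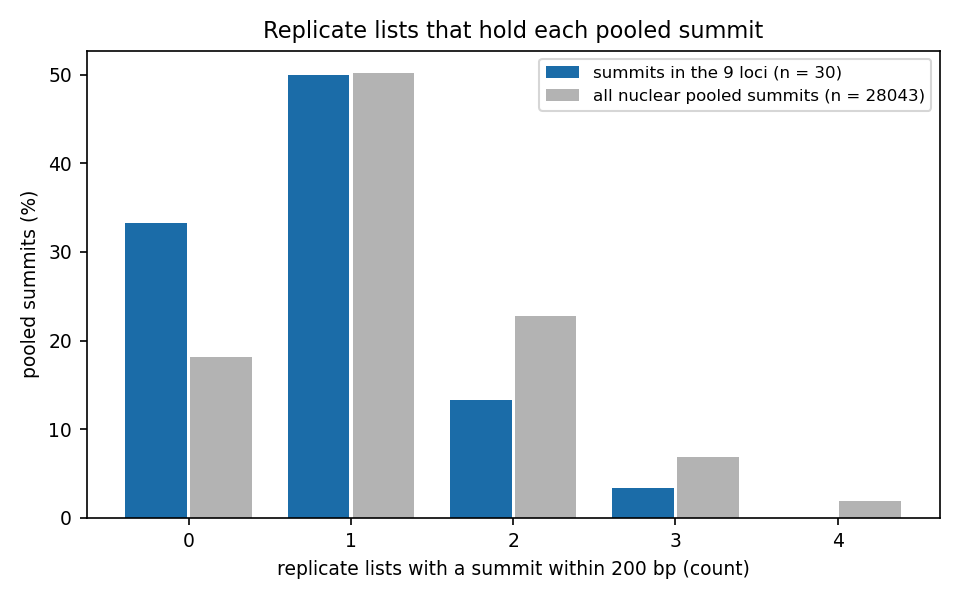
Share of pooled summits (y axis, percent) by the number of replicate lists that hold a summit within 200 bp (x axis), for the 30 summits in the 9 loci (blue) and all 28043 nuclear pooled summits (grey). The members have 33.3% in no replicate, against 18.2%, and 0% in all 4, against 1.90%.

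The 5 summits found in at least 2 replicates were those upstream of egl-20, cwn-2, mom-5 and cfz-2 and the one in lin-17. At egl-20 and cfz-2 the replicate summits matched the pooled summit but not each other, so they were not shared between replicates. Of the remaining summits, those upstream of cwn-2 and mom-5 lay within 100 bp of the 5′ ends of ipla-7 and algn-10, and the other was that in lin-17. The pooled summits shared between replicates thus partly lay next to the 5′ ends of neighbouring genes. Peaks so placed cannot be given to the members, and their link to the neighbours was not tested.

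By position, 18 of the 30 pooled summits lay upstream and 12 in gene bodies, or 4.00 and 2.92 per 10 kb. No values over all genes are set beside these positions or the nearest 5′ ends, so they describe the 30 summits only. Those in gene bodies fell in coding exons (6), introns (4) and 3′ UTRs (2). A total of 3 of the upstream summits lay inside another protein-coding gene. For 21 of the 30 the nearest protein-coding 5′ end was that of the member, and for 9 it was that of another gene, which was ipla-7, srsx-22, algn-10, col-123, dct-15 or, once, F32B5.1. In the promoter window, which ended 1000 bp upstream and 200 bp downstream of the gene start, 5 of the 9 genes had a pooled summit: egl-20, cwn-1, mig-1, lin-17 and cfz-2. Over all protein-coding genes the share was 37.5%, and these summits had ranks from 3991 to 18484.

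The nearest IDR summits lay well away from most members. Their distance from the 5′ end was 6.84 kb for mom-2, 11.8 kb for egl-20, 14.3 kb for mom-5, 18.0 kb for lin-17 and 46.1 kb for lin-44, and from 83.2 to 421 kb for the other 4. The median over the 9 genes was 46.1 kb, and over all protein-coding genes 50.6 kb. The peaks in question were nearest to the 5′ ends of other genes, such as fat-3 near egl-20, eif-3.C near mom-5, cpz-1 near lin-17 and egg-5 near lin-44.

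The genes whose best summits were most like those of the leading members were found by the distance between percentile ranks over the 4 replicate lists, with 100 for a list without a summit in the locus. For cwn-2 these were T05H10.1, grl-10 and rft-2, at distances of 3.30, 3.41 and 4.23 percentage points. For lin-17 they were R10E4.1 and sftb-1, which share their summits (6.25 points), and gcy-12 (8.93 points). The best pooled ranks of these 6 genes ran from 3072 to 13979, and nothing beyond peak rank entered this measure.

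The rest of the Wnt pathway was read in the same way, with 41 genes listed by role. All 41 loci held a pooled summit, against 81.0% of all protein-coding loci and 89.8% when these are weighted to the locus lengths of the 41. An IDR summit lay in 5 of the 41 (12.2%), against 6.76% of all protein-coding loci and 8.67% with that weighting. Of these 5, 2 lay next to the 5′ end of another gene. By class the 5 were 1 of 8 genes of Wnt secretion, 0 of 10 other receptors and surface modulators, 4 of 16 intracellular transducers and 0 of 7 targets. The median best pooled rank was 6248, 5870, 2514 and 6687 in these classes, against 5831 over the 8 members with a pooled summit and 7800 over all protein-coding genes with one. These medians are not weighted for locus length, although a longer locus can hold more summits. Counts this small do not separate the classes.

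The strongest was at mom-1, which encodes the Porcupine-type acyltransferase that adds lipid to Wnt proteins. Its locus held 2 IDR summits, 3381 bp from the 5′ end in a coding exon at rank 84 and 3583 bp from it in an intron at rank 733. The first matched all 4 replicates, at ranks 143, 102, 71 and 23, and the same summits of replicates 2, 3 and 4 matched the second, so the 2 may be counted as 1 place. The window around the first summit, shown as the contrast to those of the members, held none of the 5 motifs.
mom-1, chrX:6296443-6296543: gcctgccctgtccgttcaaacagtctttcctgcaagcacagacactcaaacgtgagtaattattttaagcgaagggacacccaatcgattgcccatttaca

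Among the transducers the IDR peaks were those in the loci of gsk-3 (rank 179), sys-1 (rank 529), mig-5 (rank 574) and dsh-2 (rank 725), which encode the kinase GSK3, a beta-catenin and a pair of Dishevelled proteins. The first was 2 bp from the 5′ end of Y18D10A.4 and the second 147 bp from that of the histone gene his-68, so neither can be given to the Wnt gene. The mig-5 and dsh-2 summits lay 207 and 120 bp upstream of the genes' own 5′ ends. Both matched replicates 1 and 4 alone, at ranks 531 and 555 for mig-5 and 1047 and 1223 for dsh-2. The gsk-3 peak matched replicates 1, 3 and 4 at ranks 114, 864 and 195, and the sys-1 peak all 4 at ranks 373, 4237, 6642 and 1684. Of the other secretion genes mtm-6 came next (rank 3471, 14 bp from the 5′ end of acaa-2). Among surface proteins the best peaks were at cam-1, the Ror receptor (rank 2102), and sdn-1, a syndecan (rank 3106). The cam-1 peak lay in an intron 9062 bp from the 5′ end and matched replicate 1 alone. It was nearer to the 5′ end of C01G6.9, 5424 bp away. The sdn-1 peak lay 4580 bp upstream and matched replicates 1 and 4. The targets psa-3 and tlp-1, which act in the T cell lineage, had peaks at ranks 1057 and 1108, below the IDR list; the tlp-1 peak matched all 4 replicates and the psa-3 peak 3.

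**Figure D4:**
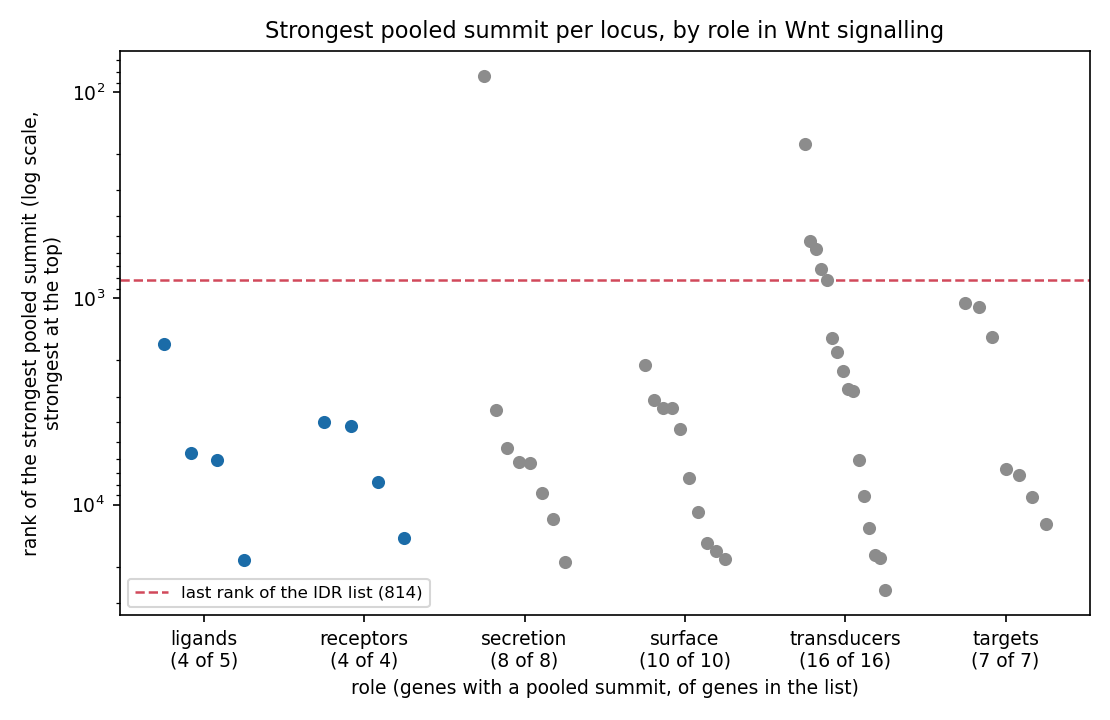
Rank of the strongest pooled summit in each locus (y axis, log scale, strongest at the top) for the Wnt ligands and Frizzled receptors (blue) and the other Wnt pathway genes by role (grey), 1 point per gene; the dashed line is rank 814, the last of the IDR list. No ligand or receptor lies above the line, because none has an IDR summit, and mom-1 is highest at rank 84.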

How the data were processed

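ChIP-seq of EGL-27 was read from 6 peak lists on ce11, which matches the WBcel235 reference; 0 peak ends lay beyond a chromosome end. By the README texts deposited with them, the authors made 1 list of peaks with background per replicate, against a common control alignment, and 1 on the 4 replicates pooled, and took the IDR list from both. Each peak carries a score, the authors' deposited signal value, and a deposited −log10 q-value. The score served only to rank peaks within a list: its scale, the peak caller and the thresholds were not given in the sources used here. Read depth is unknown. Replicates share 1 control, and the pooled list contains the replicates, so part of their agreement is built in.

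Gene models came from Ensembl release 115. The summit is the peak start plus the deposited offset, and summits match within 200 bp. The ce10 lists were not used. Backgrounds are over 19973 nuclear protein-coding genes or all nuclear summits, also weighted over 5 bands of locus length or rank. No test between groups was run, since there is 1 group, and genes of a named list are not replicates. Dixon's criterion was applied to sets of 4 replicate values, and an exact binomial interval, which treats summits as independent, only bounded the alternatives. Named genes are the members, genes nearest to their summits, pathway genes with an IDR summit, the 2 best ranked per role, and the 3 most alike. Members, lists and rules were chosen with earlier results of these data known. Counting was tested on simulated data. Python 3.11.15, numpy 2.4.6 and pandas 2.3.3 were used, and alternatives are given at the end.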

Additional observations from a re-analysis of the deposited data

Results flagged for a closer look

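The mom-2 locus had 0 summits in replicate 2 and 2 in each of replicates 1, 3 and 4. Dixon's criterion flagged replicate 2, the 1 such case among 11 sets of 4 replicate values. Because the counts of replicates 1, 3 and 4 were equal, any different count in replicate 2 would have been flagged. The flag therefore cannot show that replicate 2 stood apart, and the usual chance rate of about 1 in 20 does not apply to it. The median count of replicate 2 was also 0, both over the members and over all protein-coding loci. Replicate 2 has the shortest list, 6602 peaks, and 38.5% of all protein-coding loci held a summit of it; the part of list length in this value was not tested.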

How the results depend on the processing

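Of 39 values recomputed under 13 other settings, 32 stayed within a factor of 1.5 for counts and densities, within 1 SD of the replicates for their mean, or within the exact 95% binomial interval for the share of summits found in 3 or 4 replicates (0.0844% to 17.2%). With 2 kb upstream the pooled summits numbered 19 and the share found in 3 or 4 replicates was 0%, since the peak near ipla-7 then lay outside. With 10 kb upstream 1 member, mom-2, had an IDR summit. With only pooled peaks above the median rank the loci held 11 summits, or 1.28 per 10 kb, by the shorter list itself. With replicate lists cut to 6602 peaks the share found in 3 or 4 was 0%. In the promoter window alone, chosen after seeing the data, 5 members had a pooled summit and 0 an IDR summit. Leaving out each replicate in turn gave a mean of 5.67 to 7.67 member loci per replicate, and 6.67% to 13.3% of summits found in all but at most 1 of the remaining 3, a less strict rule than 3 of 4. No paired analysis was possible because the samples form 1 group. Unknown read depth limits all absolute statements on peaks that were not seen.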

Other observations

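The pooled summit 661 bp upstream of lin-17 matched no replicate although it ranked 3991. Of the 5598 nuclear summits in the strongest of 5 equal rank bands 47 were like it in this, and 13 of them ranked higher.

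A summit of replicate 2 in lin-17, at rank 400 and 6.06% of its list, lay 52 bp from a pooled summit of rank 5332 and had a partner of rank 25949 in replicate 1. Replicates 3 and 4 had no summit within 200 bp of that pooled summit.

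Between the 5′ ends of mom-2 and srsx-22, replicates 1 and 3 each had a peak among the strongest 8% of their lists (ranks 1527 and 1542), and an IDR peak of rank 301 lay 6.84 kb upstream of mom-2, 2527 bp from the 5′ end of srsx-22. The samples hold no measure of expression.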
